A study of Mus musculus with 2 samples.

Results

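The genes of the proteasome were measured in a fast muscle of the calf, the gastrocnemius, taken from 14-day-old B6CASTF1/J females. Every gene whose symbol starts with Psma to Psmg followed by a digit, that is not named as a pseudogene and that has a protein-coding transcript was taken, which gave 50 of 55536 annotated genes. These divided into 7 alpha, 7 standard beta and 3 immune beta subunits of the 20S core, 2 core subunits restricted to other tissues, 6 ATPase and 11 non-ATPase subunits of the 19S cap, 6 activators and inhibitors, 7 assembly factors, and Psmc3ip. The last, a cofactor of meiotic recombination, matched by its symbol alone and is no part of the proteasome. Another 4 matching symbols were pseudogenes and held at most 2 counts in a library.

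The B6CASTF1/J mouse is the F1 hybrid between strains C57BL/6J and CAST/EiJ, and the labels name no transgene, treatment or second genotype. Total RNA was sequenced from 2 libraries, replicates 1 and 2 of 1 group, each made from 300 ng with ERCC spike-ins added. Both library descriptions name 3 females, but the tissue text gives 1 of the replicates a female in the singular, so pooling of animals is unclear and the spread between libraries may be technical in part. With 1 group and 2 libraries no test across animals was possible, and values are given for replicate 1 and then replicate 2, or as mean ± SD (n = 2).

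The proteasome is the chamber in which cells cut up proteins marked with ubiquitin. Its 20S core stacks rings of alpha subunits, which guard the entrance, on rings of beta subunits, of which Psmb5, Psmb6 and Psmb7 carry the cutting sites. The 19S cap binds ubiquitinated proteins, removes the ubiquitin and unfolds the chain with its ATPase ring, and the cap and core together make the 26S proteasome. Interferon induces Psmb8, Psmb9 and Psmb10, which replace the standard cutting subunits in newly built immunoproteasomes and change the peptides offered to T cells. In skeletal muscle the proteasome does much of the breakdown of contractile proteins.

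Gene counts summed to 35592003 and 42105856 in the 2 libraries, with a further 285877 and 317175 on spike-ins. The tissue label fitted its markers: all 8 muscle fibre markers were above 1 TPM, with sums of 96417 and 101820 TPM. TPM is an abundance divided by transcript length and scaled to 1 fixed sum over all listed features in each library, and it is used for every comparison of levels between genes. Of other cell types, 5 of 5 endothelial markers (sums of 175 and 171 TPM), 7 of 10 macrophage markers (55.0 and 65.0 TPM) and 4 of 6 markers of MHC class II and dendritic cells (10.0 and 9.91 TPM) were above 1 TPM. None of 10 lymphoid markers reached 1 TPM (sums of 1.88 and 1.90 TPM), and Nkg7 was at 0. In such bulk samples, fewer cells of a type and less RNA per cell cannot be told apart.

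The sequences upstream of Psmb10, Psmb5, Psmb6 and Psmd12 are shown first. They hold no pair of an immune subunit and the standard subunit it replaces. No upstream sequence was available for Psmb7, and those of Psmb8 and Psmb9 are not printed in full. RefSeq windows (build GRCm38.p6) matched 42 of the 50 genes; Psma8, Psmb1, Psmb2, Psmb7, Psmc3, Psmd3, Psmd7 and Psmg2 had no window. Only bases upstream of every annotated exon are printed, 5′ to 3′, and capitals mark matches to TGACNNNGC, the core of the antioxidant response element bound by the proteasome gene activator Nfe2l1, or to its longer form TGACNNNGCA. Psmb10 is the most abundant immune subunit, Psmb5 and Psmb6 are standard cutting subunits with the core, and Psmd12, a 19S lid subunit, had the longer form as the only member window to do so.
Psmb10, chr8:105938445-105938642, minus strand: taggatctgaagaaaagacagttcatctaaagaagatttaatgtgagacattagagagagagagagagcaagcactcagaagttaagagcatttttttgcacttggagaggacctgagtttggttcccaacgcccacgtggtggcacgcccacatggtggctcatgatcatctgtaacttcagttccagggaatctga
Psmb5, chr14:54618023-54618245, minus strand: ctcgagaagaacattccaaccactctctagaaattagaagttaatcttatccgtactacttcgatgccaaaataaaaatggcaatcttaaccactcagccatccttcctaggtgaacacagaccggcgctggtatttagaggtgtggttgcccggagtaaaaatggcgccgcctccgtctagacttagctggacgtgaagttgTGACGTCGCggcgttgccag
Psmb6, chr11:70525107-70525356, plus strand: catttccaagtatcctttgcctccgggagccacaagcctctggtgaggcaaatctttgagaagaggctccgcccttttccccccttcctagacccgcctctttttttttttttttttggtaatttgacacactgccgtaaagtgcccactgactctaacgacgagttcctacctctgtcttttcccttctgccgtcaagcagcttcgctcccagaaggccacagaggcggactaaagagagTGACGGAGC
Psmd12, chr11:107479278-107479483, plus strand: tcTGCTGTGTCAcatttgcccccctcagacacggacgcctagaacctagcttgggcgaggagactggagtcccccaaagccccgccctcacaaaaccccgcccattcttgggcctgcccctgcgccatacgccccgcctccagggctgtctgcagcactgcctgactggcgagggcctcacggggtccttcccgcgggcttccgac

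Counted from the RefSeq start site, the match began at -47 in Psmb5, at -9 in Psmb6 and at -248 in Psmd12, where it reads on the opposite strand. The core was found in the 250 bases upstream of 5 of the 42 genes (Psmb5, Psmb6, Psmc6, Psmd12 and Psmd9), against 10.2% of all 32851 windows and 10.4% of those of protein-coding genes. The longer form, which contains the core, was in 2.47% of all windows. Of 9 motifs searched on both strands, none was present in the Psmb10 window. The Psmb8 window held TTCCCAGAA at -97, a match to the gamma-activated site TTCNNNGAA that STAT factors bind. Read on the opposite strand, it also matches the narrower TTCNNGGAA. The same window held TATAAA at -237. The gamma-activated site was in 7.02% of all windows and upstream of 1 other member, Psmg1, and TTCNNGGAA was in 4.06% of all windows. The Psmb9 window held the GC box GGGGCGGGG at -56, found in 10.4% of all windows, and ATTGG, the reverse of CCAAT, at -8. The Psmb8 and Psmb9 windows lie on annotated exons, and their letters beyond the matches are not printed. The genes and strands of those exons were not separated. On the opposite strand, Tap1 overlaps Psmb9 by 212 bases and the antisense gene Gm20496 overlaps Psmb8 by 2139 bases.

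The other motifs were set against all windows in the same way. The core of ETS factor sites, CCGGAA, was upstream of 18 of 42 member genes, against 12.0% of all windows and 15.0% of those of protein-coding genes. Besides Psmc3ip, those genes were alpha subunits, 19S subunits, activators, the inhibitor Psmf1 and the assembly factors Psmg1 and Psmd10. No beta subunit was among them, but Psmb1, Psmb2 and Psmb7 had no window, so few were searched against the share of 15.0%. CCAAT was upstream of 15 member genes against 33.8% of windows, the GC box of 6, TATAAA of 4 against 12.4%, and the interferon-stimulated response element, searched as GAAA, any 2 bases and GAAA, of 3 (Psmb3, Psmd4 and Psmd9) against 2.98%. A match describes letters in these windows, not a site in use.

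The proteasome genes were broadly present in this muscle. Of the 50 genes, 45 had at least 1 TPM in both libraries, against 50.3% of all 21901 genes with a protein-coding transcript. Together the 50 genes held 2293 and 2530 TPM, which was 0.232% and 0.256% of the TPM of all genes. The 31 constitutive subunits of the core and cap spanned 6.59-fold and 7.81-fold from the lowest to the highest. Their levels ran between 26.6 TPM (Psma2) and 175 TPM (Psma3) around a median of 56.6 TPM in replicate 1, and between 27.2 and 212 TPM around 64.7 TPM for the same genes in replicate 2. In each library 25 of the 31 were within 2-fold of that median. Set among detected protein-coding genes, the 31 ranked between percentiles 81.5 and 97.2, with a median of 91.9.

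**Figure D1:**
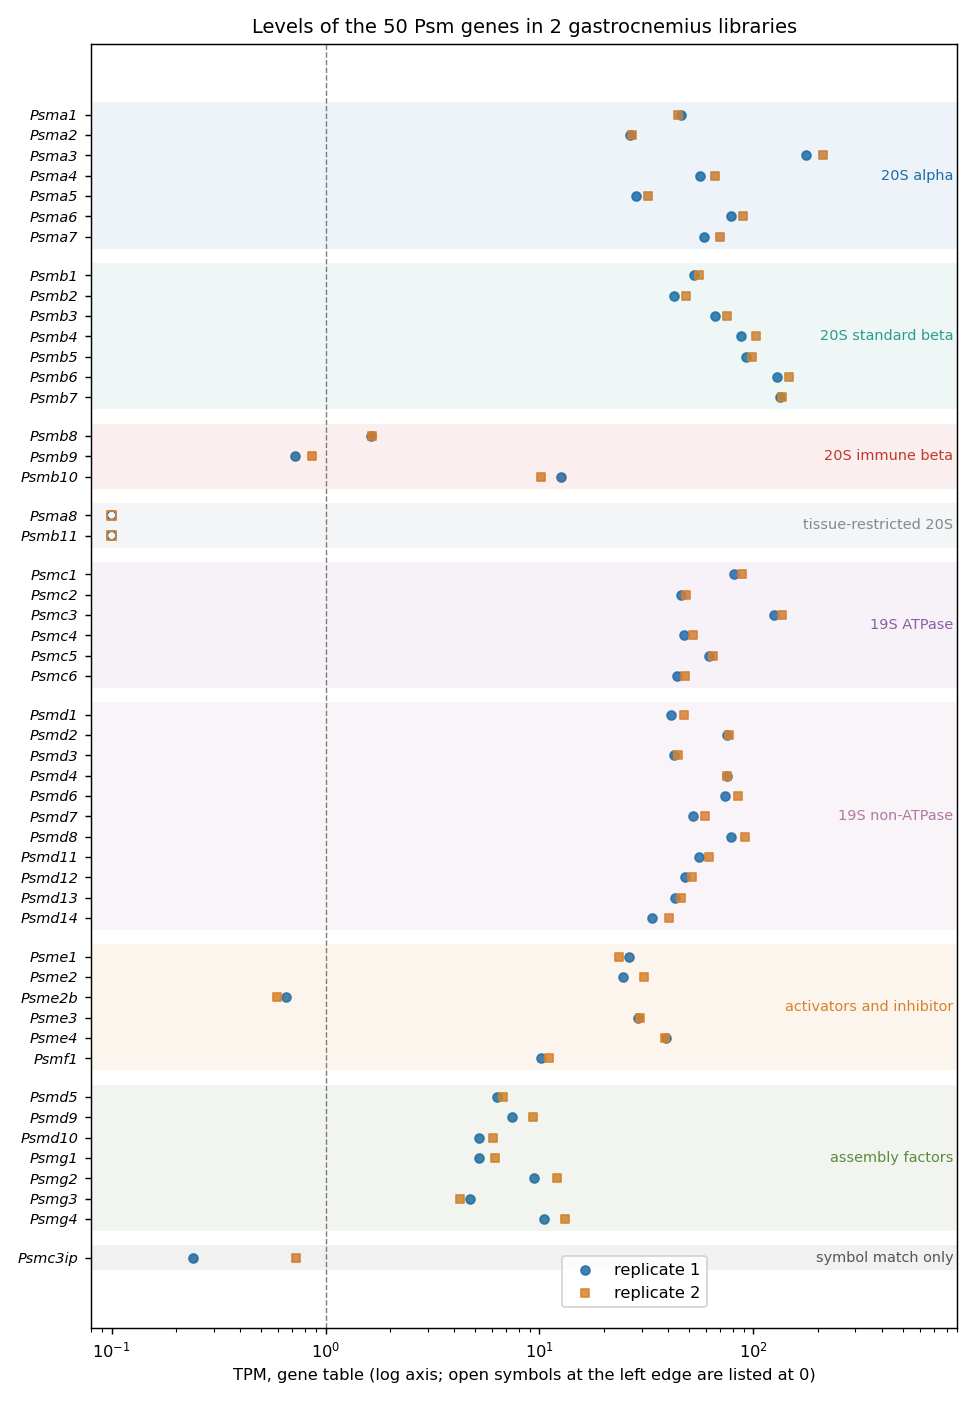
Gene-table TPM (log axis) of each of the 50 genes in replicate 1 (circles) and replicate 2 (squares), grouped by sub-complex, with a dashed line at 1 TPM. Constitutive core and cap genes lie between 26.6 and 212 TPM, assembly factors between 4.27 and 13.1 TPM, and Psma8 and Psmb11 are drawn open at the left edge because they are listed at 0.

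Alpha subunits, which form the outer rings of the core and its gate, had a median of 61.5 ± 6.92 TPM. Psma3 was the highest of the 7, at 175 and 212 TPM from 3471 and 4840 expected counts, the deposited estimate of reads per gene that need not be whole. Psma2 was the lowest at 26.6 and 27.2 TPM, and Psma5 stood next to it at 28.2 and 32.3 TPM. The lowest and highest alpha subunit therefore differed 6.59-fold and 7.81-fold although the particle holds them in equal number. The other 4 lay between 44.6 TPM (Psma1 in replicate 2) and 89.3 TPM (Psma6 in replicate 2).

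Standard beta subunits, which form the inner rings, had a median of 93.1 ± 8.34 TPM, which was 0.60 ± 0.03 above the alpha median on the log2 scale. The 3 cutting subunits were among the 4 highest of the 7. Psmb7, the subunit with trypsin-like activity, had 134 and 137 TPM. Psmb6, with caspase-like activity, had 130 and 147 TPM, so that the order of these 2 genes differed between the libraries. Psmb5, with chymotrypsin-like activity, had 92.1 and 99.0 TPM, and the non-catalytic Psmb4 lay beside it at 87.2 and 103 TPM. Psmb2, also non-catalytic, was the lowest at 42.6 and 48.6 TPM. The excess of the beta median over the alpha median shrank to 0.16 on the log2 scale in a second deposited quantification made directly from the reads, and to 0.21 when only protein-coding transcripts were summed. The rank of Psmb5 also depended on the quantification. In the second, Psmb5 had 100.97 and 102.8 TPM, below Psmb4 at 122 and 130 TPM and Psmb3 at 101.09 and 107.6 TPM.

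All 3 immune subunits were far below the standard subunits they replace. Psmb8 had 1.63 and 1.65 TPM, resting on 45 and 54 counts, against 92.1 and 99.0 TPM for Psmb5. Psmb9 had 0.72 and 0.86 TPM, from 16 and 20 counts, against 130 and 147 TPM for Psmb6. Psmb10 had 12.6 and 10.2 TPM, from 200 and 216 counts, against 134 and 137 TPM for Psmb7. The immune gene was below the standard gene in both libraries for every pair, and the deposited intervals of the 2 genes overlapped in 0 libraries. The widest of these intervals among the immune genes ran between 10.6 and 14.9 TPM in replicate 1 and between 8.50 and 12.1 TPM in replicate 2, for Psmb10, far under those of Psmb7.

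The size of the difference was unequal among the pairs. The log2 ratio of immune over standard was -5.86 ± 0.06 for Psmb8 over Psmb5, with Psmb5 56.5-fold and 60.0-fold higher. It was -7.45 ± 0.06 for Psmb9 over Psmb6, with Psmb6 180-fold and 170-fold higher. For Psmb10 over Psmb7 it was -3.58 ± 0.24, with Psmb7 10.6-fold and 13.4-fold higher. Psmb10 alone made up 84.3% and 80.3% of the TPM of the immune subunits. All 3 immune genes together were 4.03% and 3.22% of the summed TPM of the 6 catalytic genes. The exact Poisson intervals of the Psmb9 counts, 9.15 to 26.0 for 16 counts and 12.2 to 30.9 for 20 counts, show how few reads the lowest pair rests on, and such intervals cover counting error only.

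**Figure D2:**
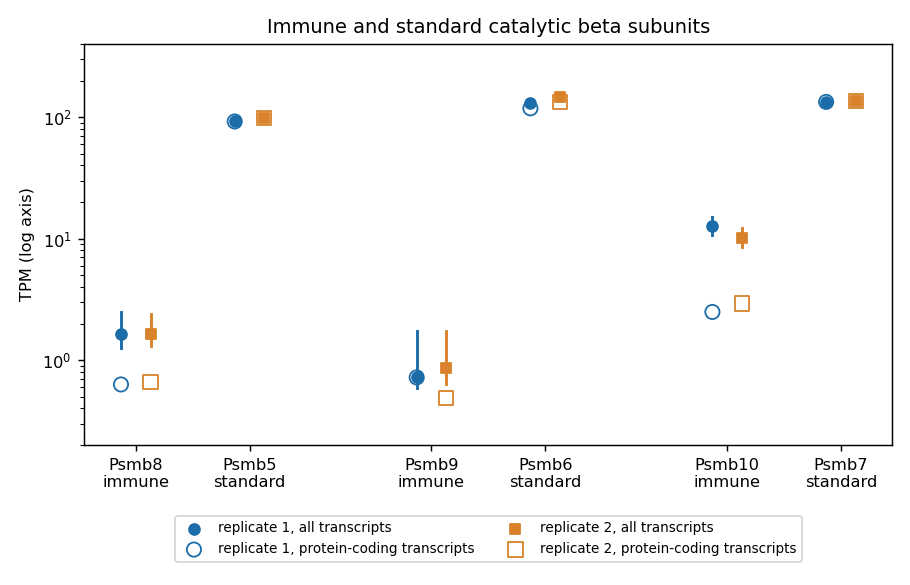
TPM (log axis) of each immune catalytic subunit and of the standard subunit it replaces, in replicate 1 (circles) and replicate 2 (squares), with bars for the deposited interval; filled symbols sum all transcripts and open symbols protein-coding transcripts alone. Every immune value lies below 15 TPM and every standard value above 80 TPM, and Psmb10 drops to 2.49 and 2.92 TPM when only its coding transcript is counted.

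Much of the Psmb8 and Psmb10 signal was assigned to transcripts not annotated as protein-coding. Of the Psmb10 TPM, 19.8% and 28.6% lay on its 1 coding transcript, Psmb10-201, at 2.49 and 2.92 TPM. Psmb10-203, a processed transcript of 426 bases, held 6.07 and 3.45 TPM. By counts the coding transcript held more, with 85.1 of 200 and 115 of 216, since TPM divides by length and Psmb10-201 is 1311 bases long. Of the Psmb8 TPM, 38.7% and 40.0% lay on coding transcripts, and the retained-intron transcript Psmb8-205 led at 1.00 and 0.87 TPM. Psmb9 differed between the libraries, with 100% of its TPM on coding transcripts in replicate 1 and 56.3% in replicate 2. With coding transcripts alone, the log2 ratios were -7.21 ± 0.03 for Psmb8 over Psmb5, -7.72 ± 0.52 for Psmb9 over Psmb6 and -5.64 ± 0.14 for Psmb10 over Psmb7, and the immune share of the catalytic TPM was 1.10%. On CPM, which is not divided by length, Psmb10 over Psmb7 was -4.39. In the second quantification coding transcripts held more of the Psmb8 TPM, at 71.5% and 94.0%. They held 25.6% and 33.2% of the Psmb10 TPM, near the first, and 100% and 28.0% of the Psmb9 TPM.

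Genes that act with the immunoproteasome in antigen presentation were measured beside it. Of 13 such genes, 12 had at least 1 TPM in both libraries. The highest were the endoplasmic reticulum chaperones Calr, at 91.4 and 112 TPM, and Canx, at 57.3 ± 10.4 TPM and higher in replicate 2, and B2m, the light chain of MHC class I, at 39.1 and 46.8 TPM. Tap1 and Tap2, the peptide transporter genes that flank Psmb8, were low, at 1.09 and 1.28 TPM and at 2.86 and 2.28 TPM. Nlrc5, the activator of MHC class I genes, had 0.10 and 0.20 TPM. The immune genes Psmb9 and Psmb8 lie 9956 bases apart on chromosome 17 on opposite strands with Tap1 between them, and Psmb9 shares 212 bases with Tap1, which had 71 and 100 counts and is read from the other strand. The share of the immune subunit reads that came from macrophages, dendritic cells or endothelium, whose marker sums are given above, was not tested.

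Both core subunits known from other tissues were listed at 0 in both libraries. They were Psma8, the alpha subunit of the testis proteasome, and Psmb11, the beta subunit of the thymic epithelial proteasome. A count of 0 allows up to 3 counts in a library, and the two-sided Poisson interval used above for Psmb9 would reach 3.69. Of 5 male germ cell markers none reached 1 TPM (sums of 0.03 and 0.05 TPM, with Prm1, Sycp1 and Tnp1 at 0), and of 3 thymic epithelial markers Foxn1 and Prss16 were at 0, while Ccl25 was at 3.85 and 4.25 TPM. The second quantification gave Psmb11 12.4 and 8.80 estimated counts. Psmb11 lies 3410 bases from Psmb5 on chromosome 14, on the opposite strand, with no coding gene between them.

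In the 19S cap the ATPases Psmc1 to Psmc6, which form the unfolding ring, had a median of 56.6 ± 2.58 TPM, close to the alpha subunits. Psmc3 stood above the others at 125 and 136 TPM, and Psmc1 followed at 81.2 and 88.2 TPM. The other 4 lay between 44.1 TPM (Psmc6 in replicate 1) and 64.7 TPM (Psmc5 in replicate 2). The log2 ratio of the ATPase median over the alpha median was -0.12 ± 0.10, and it took the other sign, at 0.061, in the second quantification and, at 0.53, on counts not divided by length (CPM). For this sub-complex the 2 medians were thus not separated beyond the choice of quantification.

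The 11 non-ATPase subunits had a median of 55.7 ± 4.91 TPM, and their highest level was 2.34-fold and 2.26-fold the lowest. Psmd8, a lid subunit, was the highest at 78.3 and 91.6 TPM. Psmd6, another lid subunit, had 74.1 and 84.8 TPM. Psmd14, the enzyme that removes ubiquitin from arriving proteins, was the lowest at 33.5 and 40.5 TPM. The ubiquitin receptor Psmd4 had 75.6 and 75.7 TPM, and the scaffold subunits Psmd2 and Psmd1 had 75.6 and 77.3 TPM and 41.0 and 47.5 TPM. Their median over the alpha median was -0.14 ± 0.04 on the log2 scale, and it too changed sign, to 0.72, on CPM.

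The set of 5 activators, which open the core without the cap, and the inhibitor Psmf1 had a median 2.36-fold below the alpha subunits (log2 ratio of -1.24 ± 0.11). Psme4, the large nuclear activator PA200, was the highest at 38.9 and 38.6 TPM, from 6626 and 7364 counts. Psme1 and Psme2, which form the interferon-inducible ring PA28 used together with immunoproteasomes, had 26.2 and 23.6 TPM and 24.6 and 30.8 TPM. On the same scale both were far above Psmb8 and Psmb9, and less far above Psmb10 at 12.6 and 10.2 TPM. The nuclear ring subunit Psme3 had 28.8 and 29.7 TPM. In the second quantification Psme4 had 50.7 and 48.6 TPM and Psme3 49.1 and 51.2 TPM, so the highest differed between the libraries there. Psmf1 had 10.2 and 11.0 TPM. Psme2b, a close copy of Psme2, had 0.65 and 0.59 TPM from 13.5 and 14.2 counts. Of its 807 distinct 31-base stretches, 617 also occur in Psme2, and the deposited posterior standard deviation of its count was 27.4% and 29.3% of the count, so reads of the copy are uncertain.

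The 7 assembly factors, which help to build the particle and are not part of it when finished, were all detected but low, with a median of 6.54 ± 0.27 TPM, 9.37-fold below the alpha subunits (log2 ratio of -3.23 ± 0.10). They ranked between percentiles 30.3 and 61.3 of detected protein-coding genes, below all 31 constitutive subunits. Psmg4 and Psmg2, chaperones of alpha ring assembly, were the highest at 10.5 and 13.1 TPM and at 9.47 and 12.0 TPM. Their partners Psmg1, at 5.23 and 6.22 TPM, and Psmg3, at 4.73 and 4.27 TPM, were lower, and Psmg3 was the lowest of the set. The chaperones of the ATPase ring, Psmd5, Psmd9 and Psmd10, had 6.35 and 6.73, 7.44 and 9.36, and 5.20 and 6.09 TPM. Psmc3ip, outside the proteasome, had 0.24 and 0.73 TPM from 5 and 23 counts.

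Genes outside the symbol rule that act on the particle were also measured. All 14 proteasome-associated genes with an annotated ID were above 1 TPM, and Paaf1 was not analysed here. The highest were the adaptor Ecpas, formerly AI314180, at 98.9 and 101 TPM, Zfand5, a zinc finger protein that binds the proteasome, at 82.2 and 81.1 TPM, and Pomp, the maturation factor of the core, at 63.5 and 68.4 TPM. Pomp thus lay at the level of the subunits and not at that of the other assembly factors. Of 8 regulators of proteasome genes 6 were above 1 TPM. Nfe2l1, the transcription factor that raises proteasome genes when the particle is inhibited, was at 126 and 117 TPM, and Ddi2 and Ngly1, which process it, were at 18.2 and 17.1 TPM and at 17.0 and 21.5 TPM. Its relative Nfe2l3 was at 0.01 and 0.04 TPM, and the small partner Maff at 0.77 and 0.68 TPM.

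The proteasome genes differed little between the 2 libraries. On TMM-scaled counts, which centre the bulk of genes, 48 members had a summed count of at least 20. Their median log2 ratio of replicate 2 over replicate 1 was 0.01, with 25 above 0 and 23 below, and the middle 50% lay between -0.09 and 0.06. Over all 15734 genes with that count the median was also 0.01 and the middle 50% ran between -0.17 and 0.21. A difference of at least 1.5-fold was seen in 1 of 48 members, against 13.5% of all genes. Split by direction, 1 member was at least 1.5-fold higher in replicate 2, against 7.85% of all genes, and 0 were lower, against 5.65%. Many of the other genes had lower counts, which scatter more. The 1 member was Psmc3ip (log2 ratio of 1.72, with a 95% interval of 0.40 to 3.58 from 5 and 23 counts), so no proteasome gene passed it. On the TPM scale the median of all genes was shifted by 0.17 (0.14 with total counts), and 40 of 45 detected members were higher in replicate 2, with a median of 0.12 against 0.15 for detected protein-coding genes.

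**Figure D3:**
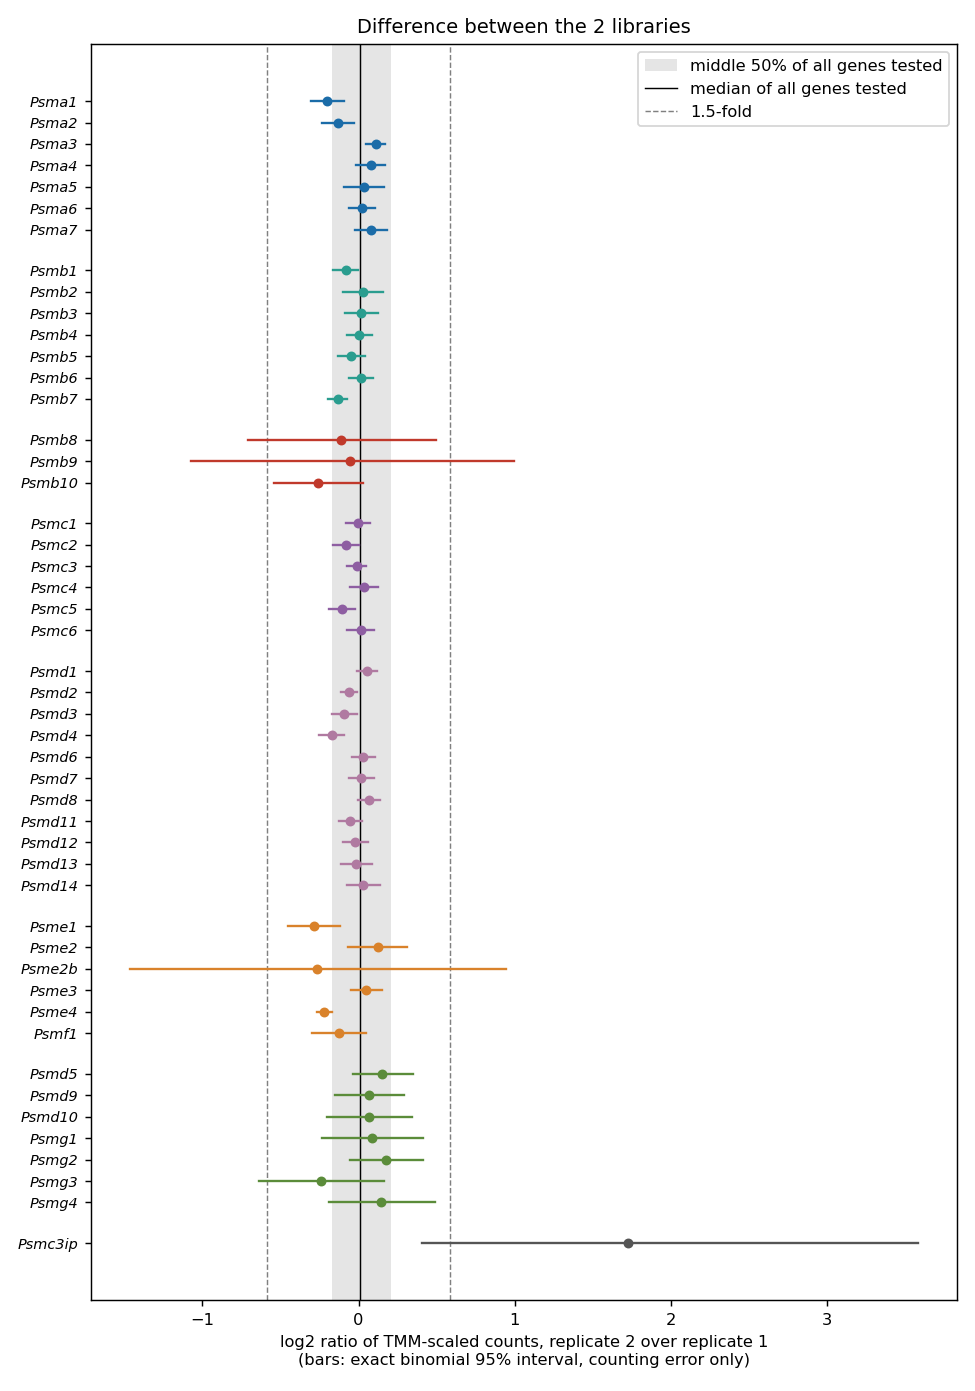
Log2 ratio of TMM-scaled counts, replicate 2 over replicate 1, for the 48 members with a summed count of at least 20, with exact binomial 95% intervals for counting error. The shaded band is the middle 50% of all genes (-0.17 to 0.21) and the dashed lines are 1.5-fold; Psmc3ip at 1.72 is the 1 point beyond them.

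Counting intervals separated small differences for the deeply counted subunits. An interval wholly above 0 was found in 2 of 48 members, Psma3 and Psmc3ip, against 19.1% of all genes. The Psma3 ratio was 0.11 (0.05 to 0.17). An interval wholly below 0 was found in 10 of 48, against 19.2%. They were Psma1 (-0.20), Psma2 (-0.13), Psmb1 (-0.08), Psmb7 (-0.13), Psmc5 (-0.11), Psmd2 (-0.06), Psmd3 (-0.09), Psmd4 (-0.17), Psme1 (-0.28) and Psme4 (-0.22), in log2 units of replicate 2 over replicate 1. The activators held the largest of these: Psme1 had 583 and 619 counts and an interval of -0.45 to -0.12, and Psme4 an interval of -0.27 to -0.17. Beside them, all 8 muscle fibre markers had intervals below 0, with a median of -0.11, as did 3 of 5 endothelial markers, with 1 above 0 and a median of -0.20, and 4 of 7 regulators, with a median of -0.20 and -0.18 for Nfe2l1. Of 14 proteasome-associated genes 4 had intervals below 0 and 1 above 0, with a median of -0.06. Intervals above 0 were found for 4 of 13 antigen processing genes and 2 of 9 macrophage markers with enough counts, and none of theirs lay below 0. The part of such shifts in the member values was not tested. The assembly factors had a median of 0.09, with 6 of 7 above 0, and every one of their intervals included 0. The 3 immune genes were at -0.11 (Psmb8), -0.06 (Psmb9) and -0.26 (Psmb10), with intervals that included 0. These intervals cover counting error only and compare the libraries, not conditions.

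Leading transcripts and coding shares were compared with those of all detected genes. Of the 45 detected members, 43 had the same leading transcript in both libraries, against 90.3% of detected protein-coding genes. In 30 of 45 at least 90% of the TPM lay on protein-coding transcripts in both libraries, against 54.6% of detected protein-coding genes, and the median share was 97.9%, against 94.2% for all detected genes. The exceptions to the shared leader were Psmd13 and Psmd5. Psmd13 was led by Psmd13-211, a nonsense-mediated decay transcript, at 48.7% of its TPM in replicate 1, and by the coding Psmd13-208 at 42.6% in replicate 2. For the assembly factor Psmd5 the leader was Psmd5-202 at 54.9% in replicate 1 and Psmd5-201 at 45.8% in replicate 2, both of them coding. A leader that is not protein-coding in both libraries was found in 2 of 45 members, Psmb8 and Psmb10, against 5.04% of detected genes. Neither held in the second quantification. There the coding Psmb8-201 led in both libraries, and Psmb10 was led by the retained-intron Psmb10-205 in replicate 1 and the coding Psmb10-201 in replicate 2.

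**Figure D4:**
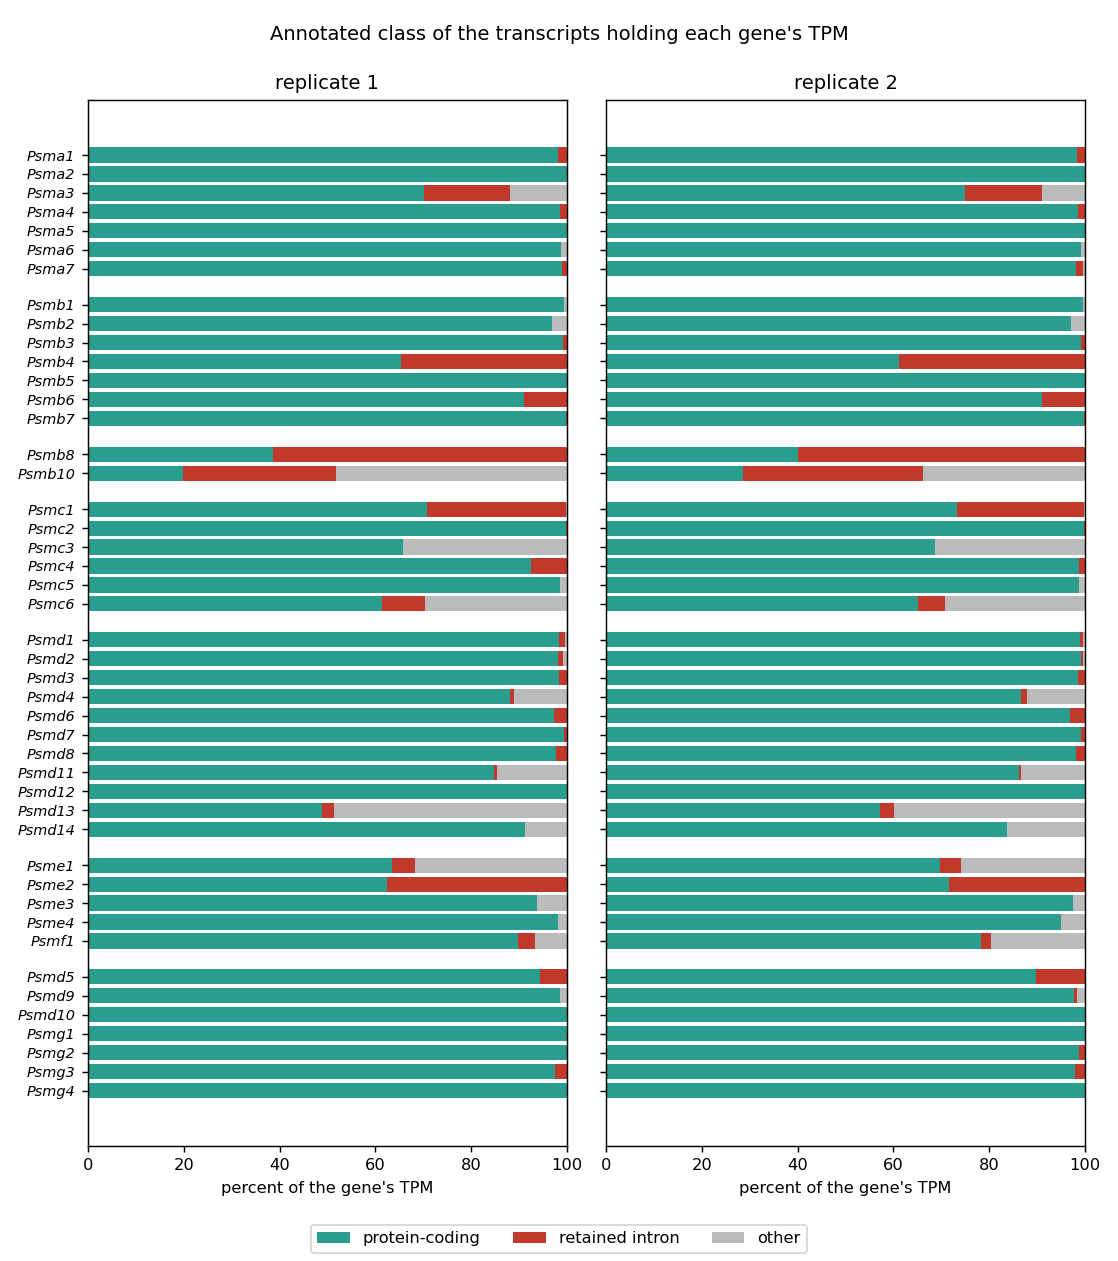
Percent of each detected gene's TPM on protein-coding, retained-intron and other transcripts, in replicate 1 (left) and replicate 2 (right). Most bars are coding almost throughout, and the Psmb8 and Psmb10 bars have the smallest coding parts, at 38.7% and 40.0% and at 19.8% and 28.6%.

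Several constitutive subunits also carried signal on non-coding transcripts. Retained-intron transcripts held 34.6% and 38.9% of the TPM of Psmb4, a beta subunit, and 29.0% and 26.4% of that of the ATPase Psmc1. In Psmc3, the highest ATPase, 65.8% and 68.6% lay on coding transcripts, and the coding Psmc3-202 alone had 80.3 and 89.3 TPM. In the PA28 genes the coding share was 63.5% and 69.7% for Psme1 and 62.4% and 71.5% for Psme2. The coding sums of Psmb4, 57.0 and 62.8 TPM, and of Psma3, 123 and 159 TPM, left Psma3 the highest alpha subunit and put Psmb4 below Psmb5 in both libraries, at 92.1 and 99.0 TPM.

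The second quantification assigned reads to other transcripts for some genes. The leading transcript was the same in both quantifications and both libraries for 31 of 45 detected members, against 70.8% of detected protein-coding genes. For Psma3 the coding transcripts Psma3-204 and Psma3-208 had 74.7 and 100.02 TPM and 44.5 and 53.8 TPM in the first quantification and 0 in the second. The second placed 121 and 156 TPM on Psma3-201 and 139 and 156 TPM on Psma3-207, both annotated for nonsense-mediated decay, and left 2.3% and 2.1% of the gene's TPM on coding transcripts, against 70.2% and 74.9% in the first. Psmd8 was led by Psmd8-202 in the first, at 76.4 and 89.6 TPM, and by Psmd8-201 in the second, at 60.9 and 56.1 TPM, both of them coding. Psmb1 changed from Psmb1-201, at 42.0 and 45.2 TPM in the first, to Psmb1-204, at 80.6 and 84.8 TPM in the second, again between coding transcripts.

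Gene totals were less affected than transcripts. The second quantification gave TPM that were higher by a median factor of 1.40 and 1.42 for the 45 detected members, against 1.35 and 1.33 for detected protein-coding genes. Psma2 was the lowest at 0.744 and 0.807, and Psmc6, an ATPase, the highest at 2.50 and 2.54. Psmc6 had 110 and 122 TPM in the second quantification, with 42.3 and 53.3 TPM on Psmc6-206, a processed transcript that had 0 in the first. The range over the 31 constitutive subunits widened to 14.7-fold and 15.8-fold, with Psma2 and Psma3 still at its ends.

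**Figure D5:**
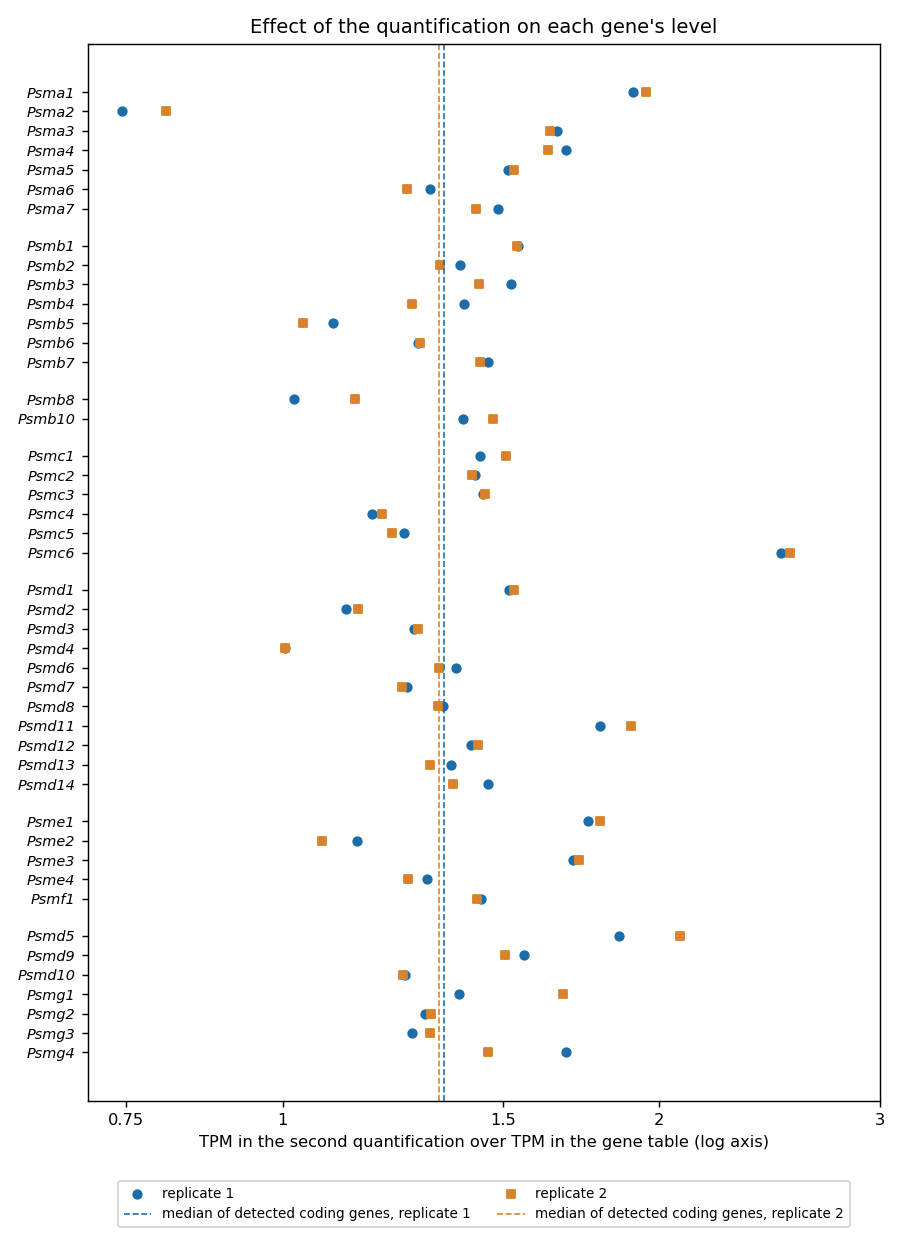
TPM in the second quantification over TPM in the gene table (log axis) for the 45 detected members in replicate 1 (circles) and replicate 2 (squares). Dashed lines mark the medians over detected protein-coding genes (1.35 and 1.33); Psma2 lies below 1 and Psmc6 at 2.50 and 2.54.

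Copies and overlapping genes bear on some of these levels. At least 100 distinct 31-base stretches were shared with another gene's transcripts by 17 members, 13 of them with a pseudogene. The 22 pseudogenes concerned held 584 and 839 counts in all, against 82364 and 104087 for the members, and 7 of them had under 1 count in both libraries. The 5 with the most were Gm13835 for Psma3 (142 and 216 counts), Gm3375 for Psmb5 (153 and 193), Gm8394 for Psma5 (127 and 200), AC114990.1 for Psmb3 (108 and 147) and Gm5422 for Psmd2 (35.9 and 60.1). The second quantification gave Gm13835 0 counts in both libraries. The deposited posterior standard deviation exceeded 1% of the count for Psma3, at 1.20% and 1.04%, and for Psme2b. Psma2 lies over AW209491 on the same strand, which had 259 and 305 counts, so reads in the shared stretch cannot be told apart by strand. The same holds, among others, for Psmd13 over Gm15542 (81.6 and 128 counts). It also holds for Psme2b, which shares 837 bases with Gm12185 (9.07 and 17.1 counts).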

How the data were processed

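Total RNA from 2 libraries of 1 group was measured. Per the deposited notes, the authors made a gene table and a transcript table from alignments to the transcriptome (mm10, GENCODE M21) and a second transcript table directly from the reads. The aligner, the quantifiers and their versions were not given in the sources used here. Per the file headers, the deposited tables hold expected counts (estimated counts in the second), TPM, an isoform percent, and signal-type columns: the bounds of an interval around a posterior mean TPM, and the standard deviation of the count's posterior. The level of that interval is not stated. The reference holds the C57BL/6J sequence, so CAST/EiJ alleles carry mismatches to it.

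Rows named by a number (26248, with 1 and 0 counts) and phiX were left out. A gene was detected at 1 TPM in both libraries. Expected counts were rounded, scaled by edgeR 4.0.16 TMM factors of 0.957 and 1.05 and set as log2 ratios with a prior count of 0.5 for genes with a summed count of at least 20; DESeq2 1.42.0 gave the alternative size factors. Intervals are exact binomial (Clopper-Pearson, 95%). The ratio and interval were tested on simulated data with known folds and counting error only. That test cannot show how the interval covers spread between libraries beyond counting error. No test between conditions exists, and p-values were not computed. Second-table TPM and counts were summed per gene. Motifs were searched on both strands in the 250 bases before each RefSeq start. Other software was Python 3.11.15 with scipy 1.17.1, numpy 2.4.6, pandas 2.3.3 and matplotlib 3.10.9, and R 4.3.3.

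The members, sub-complexes and lists were chosen with earlier results of these data known. Values are given for the catalytic pairs, the highest and lowest member of each sub-complex, members under 1 TPM, past 1.5-fold or with a posterior standard deviation over 1% of the count, and from other lists the 3 highest and those under 1 TPM; any further gene named was picked with its values in view. Alternatives were the second quantification, posterior mean TPM, coding transcripts alone, CPM, other scalings, filters, prior counts and thresholds, and each library alone.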

Additional observations from a re-analysis of the deposited data

How the results depend on the processing

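Of 81 alternative values, 52 kept their direction and stayed within a set margin, 25 moved and 4 took the other sign. The cause was not tested. For ratios of levels and the immune share the margin was the SD between the libraries. For counts it was 1.5-fold, and for the median replicate ratio it was the SD over the members tested (0.28). A ratio of levels or share from either library alone always lies within that SD of the mean, so those values could not have moved. The immune gene stayed below its standard partner under every alternative. For Psmb8 over Psmb5 the log2 ratio of -5.86 was -5.67 with posterior mean TPM, -7.21 with coding transcripts, -5.54 with CPM, and -5.91 and -5.82 with either library alone. For Psmb9 over Psmb6 (-7.45) it was -7.34 in the second quantification, -6.88 with posterior mean TPM, -7.72 with coding transcripts, -7.33 with CPM, and -7.49 and -7.41 with either library alone. For Psmb10 over Psmb7 (-3.58) it was -5.64 with coding transcripts, -4.39 with CPM, and -3.74 and -3.41 with either library alone. The immune share of 3.63% was 1.10% with coding transcripts, 2.81% with CPM, and 3.22% and 4.03% with either library alone.

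Log2 medians over the alpha subunits moved as follows. Standard beta (0.60) was 0.16 in the second quantification, 0.21 with coding transcripts, and 0.58 to 0.62 with either library alone. Immune beta (-5.22) was -5.72 in the second quantification, -5.04 with posterior mean TPM, -6.45 with coding transcripts, -5.06 with CPM, and -5.33 to -5.12 with either library alone. ATPases (-0.12) changed sign to 0.061 in the second quantification and 0.53 with CPM, with -0.18 to -0.05 with either library alone. Non-ATPase subunits (-0.14) were at -0.40 in the second quantification and -0.26 with coding transcripts, changed sign to 0.72 with CPM, and were at -0.16 to -0.11 with either library alone. Activators (-1.24) were at -1.78 with coding transcripts, -1.50 with CPM, and -1.32 to -1.16 with either library alone; without Psme2b, chosen after seeing the data, they were at -1.14. Assembly factors (-3.23) were at -2.87 in the second quantification, -2.86 with CPM, and -3.30 to -3.15 with either library alone.

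The median replicate ratio changed sign to -0.013 in the second quantification. There 2 members differed by at least 1.5-fold, Psmc3ip (1.36) and Psmb11 (-0.76, from 12.4 and 8.80 estimated counts); without Psmc3ip, an alternative chosen after seeing the data, the first quantification gave 0. Detected members numbered 47 at 0.5 TPM, 43 at 5 TPM, 46 in the second quantification and 45 with either library alone. Depth limits Psmb8, Psmb9, Psme2b and Psmc3ip, with at most 54 counts in a library. No paired analysis was possible because the libraries are 2 replicates of 1 group.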
